A study of Citrus trifoliata with 6 samples.

Results

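Proton pumps of the plasma membrane and of the vacuole were followed in lateral roots of the citrus rootstock Poncirus trifoliata with and without an arbuscular mycorrhizal (AM) fungus. The genes were found by searching the database description (Blast nr) that accompanies each gene for the names of proton ATPases, vacuolar ATP synthases, pyrophosphate-energized pumps and plasma membrane-type pumps. The search found 27 of the 22589 genes with a read in at least 1 library. By their description and KEGG text, 9 of them encode plasma membrane H+-ATPases, 11 encode subunits of the vacuolar H+-ATPase (V-ATPase) and 3 encode membrane pyrophosphatases (H+-PPases), together 23 proton pump genes. The other 4 are calcium pumps, which were caught by the words "plasma membrane-type" and whose named substrate is calcium, so they are described apart. Conversely, several genes that KEGG assigns to these enzymes carry an uninformative description and escaped the search, among them HA1 (Cs5g08370). These were added as a separate list by their KEGG text and are never counted among the 27.

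The colonized group (Gv) had been given Glomus versiforme at about 3000 spores per pot in sand that also carried mycorrhizal roots and mycelium, and the control group received no inoculum. Both groups were seedlings fed the same solution with 20 μM phosphorus, and both were sampled 3 months post-inoculation as 3 biological replicates, each a pool of plants from different pots. Whole lateral roots were used, so each library mixes colonized and non-colonized cells, and reads were counted only where they aligned uniquely to a gene of the Citrus sinensis genome. Levels are given as reads and as RPKM, the reads per kilobase of listed gene length and per M reads on genes, with M for 1000000.

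Plasma membrane H+-ATPases are single-chain P-type pumps that use ATP to push protons out of the cell. Their C-terminal end holds the pump back until it is phosphorylated and bound by a 14-3-3 protein. The resulting gradient drives uptake of phosphate, nitrate, sugars and other solutes by proton symport, and in Medicago truncatula and rice the HA1 pump energizes the membrane that surrounds the arbuscule, the branched fungal structure inside cortical cells. The V-ATPase is a rotary machine of many subunits, with a peripheral sector that splits ATP and a membrane sector that carries protons into the vacuole. The H+-PPase does the same work as 1 protein at the expense of pyrophosphate, and both pumps provide the proton gradient that exchangers use to load the vacuole.

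The libraries held 4.34 M to 4.71 M reads on genes each. Library number 3 of each group departed from numbers 1 and 2 in the same direction for many genes, and the labels do not say what sets it apart. As a check of the labels, the PT4 phosphate transporter orthologs Cs7g29450 and Cs9g18560, which the study names from these same libraries, had an RPKM of at least 49.2 in every Gv library and at most 0.27 in every control library. As a check of the tissue, the 3 genes described as Casparian strip proteins, which mark the root endodermis, were near the limit of detection with 1 to 17 reads. The 8 genes described as chlorophyll-binding or Rubisco small subunit proteins mark shoot tissue. Their summed RPKM was 102 to 144 in Gv and 111 to 126 in the controls. Most of it came from the Rubisco gene Cs4g03580, at 90.8 to 137.3 RPKM in Gv and 99.6 to 117.7 in the controls. The highest value of any other gene of this list was 10.2 RPKM, for Cs2g19680 in control 1. The part of these genes in any result was not tested.

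No proton pump gene that the search found was called different between colonized and control roots. The filter for low counts passed 18 of the 23 proton pump genes, which are 5 plasma membrane H+-ATPases, 10 V-ATPase subunits and 3 H+-PPases, and it passed all 4 calcium pumps. edgeR's quasi-likelihood test called 0 of these 22 genes under the limits of a Benjamini-Hochberg adjusted p below 0.05 over 16281 genes and a 2-fold change, against 0% of all genes tested. The smallest adjusted p of this test over all genes was 0.27. It missed the PT4 orthologs too, at 0.287 for Cs7g29450 and 0.36 for Cs9g18560, so its 0 calls do not set the pump genes apart. At an unadjusted p under 0.05 there was 1 of the 22, a V-ATPase subunit, against 4.57% of all genes tested. Blocked by replicate number, the test called 0 of the 22 against 0.995% of all genes, DESeq2 called 0 against 1.19%, and a re-implemented NOISeq criterion called 0 against 1.67%. The 95% interval of the log2 fold change lay within -1 and 1, that is within 2-fold, for 2 of the 5 plasma membrane H+-ATPases, 9 of the 10 V-ATPase subunits and 1 of the 3 H+-PPases, against 68.1% of all genes tested. For the others the interval of this fit, which has no block, reached beyond 2-fold. The block gave smaller standard errors for most of these. They were 0.15 against 0.44 without it for Cs5g04360, and 0.14 against 0.37 for Cs6g20570. For Cs4g05210 they were 0.21 against 0.32, and for orange1.1t01399 0.23 against 0.53. For Cs3g25550 they hardly differed, at 0.38 against 0.39. As these are whole roots, fewer cells of a type and less RNA per cell cannot be told apart in any of the values below.

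**Figure D1:**
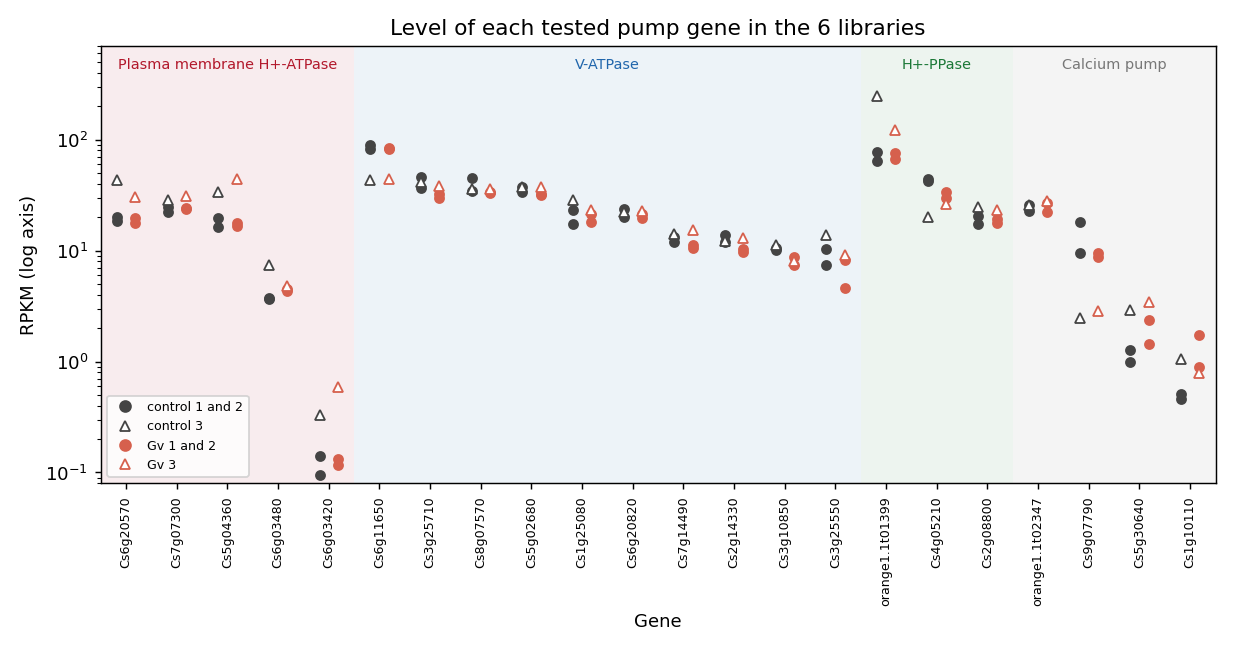
Level of the 22 tested genes in each library, in RPKM on a log axis, with control libraries in grey on the left of each gene, Gv libraries in red on the right, and library number 3 of each group as an open triangle. The levels run from below 1 RPKM for Cs6g03420 to 246 RPKM for the H+-PPase gene orange1.1t01399 in control 3, and the groups overlap for every gene but the V-ATPase subunit Cs3g10850.

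Among the plasma membrane H+-ATPases, 3 genes carried most of the reads. Cs7g07300, described as a plasma membrane H+-ATPase 2 isoform, had 702, 731 and 892 reads in Gv 1 to 3 and 748, 692 and 866 in control 1 to 3. The groups overlapped and both were highest in library 3. Its mean RPKM came to 26.2 ± 4.04 in Gv against 25.2 ± 3.23 in control (SD, n = 3 each), a log2 fold change of 0.05 (standard error 0.16, 95% interval -0.33 to 0.43, adjusted p = 0.9999 by edgeR's quasi-likelihood test). This is the most narrowly bounded value of the plasma membrane type, and it holds any difference of this gene to well under 2-fold.

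Cs6g20570, described as a plasma membrane H+-ATPase, had 559, 526 and 860 reads in Gv against 535, 611 and 1265 in control. Library 3 was the highest of each group, and control 3 was the highest of all. The log2 fold change was -0.26 (standard error 0.37, 95% interval -1.14 to 0.62). Cs5g04360, matched to an ATPase 11 of the plasma membrane type, had 449, 498 and 1178 reads in Gv against 541, 466 and 933 in control, again with library 3 far above the others in both groups. Here Gv 3 was the highest of all. Its log2 fold change came to 0.18 (standard error 0.44, 95% interval -0.88 to 1.24). For both genes library 3 differed more from the rest of its own group than the group means did from each other.

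A further 5 genes, Cs6g03420 to Cs6g03480, have neighbouring identifiers, and 4 of them are described as autoinhibited H+-ATPases. Reads of such similar neighbours can be lost or divided when only unique alignments are counted, so their levels are uncertain. Cs6g03480 was the highest of them, with 50, 55 and 54 reads in Gv against 43, 46 and 88 in control, and a log2 fold change of -0.11 (standard error 0.30). The Gv libraries lay close together and within the range of the controls. Cs6g03420 had 15, 14 and 66 reads in Gv against 11, 17 and 39 in control, with a log2 fold change of 0.56 (standard error 0.75) and library 3 again the highest of each group. Its listed length of 25816 bases is far above that of the other genes, which lowers its RPKM.

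The other 3 genes of this run, and Cs4g01370, were below the filter and were not tested. Cs6g03470 had 5, 4 and 30 reads in Gv against 2, 1 and 17 in control. Cs6g03440 had 0, 3 and 15 reads in Gv against 1, 0 and 1 in control. Most of the reads of both genes came from Gv 3, and the groups overlapped. Cs6g03445, matched to a plasma membrane ATPase 4, had 3, 2 and 13 reads in Gv against 1, 0 and 0 in control. It was the only gene of the 27 whose RPKM was above every control library in every Gv library, a pattern that 5.49% of all listed genes showed, and it rests on a few reads. Cs4g01370, matched to an ATPase 8, had 1, 1 and 0 reads in Gv against 0, 2 and 1 in control and was at the limit of detection in both.

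HA1 (Cs5g08370) is the exception among the plasma membrane pumps, and it lies outside the 27 because its description is a hypothetical protein of rice. It had 235, 303 and 1868 reads in Gv and 0 in each control library. The 2406 reads over the Gv group are at least 827-fold more, relative to library size, than the 3 reads that a count of 0 over the control group allows. Of these reads 1868 came from Gv 3, and the 538 reads of Gv 1 and 2 alone put the bound at 274-fold. Both bounds cover counting error only. The test without a block gave an adjusted p of 0.371, so the gene was not called there, and 0.0157 when Gv 3 was left out. The block lowered the adjusted p to 0.00448 and DESeq2 gave 7.75e-08, and both called it higher in Gv. The study had named this gene from these same libraries, so the value is a description of it and not independent evidence. Within the Gv group the RPKM of HA1 was 7.23 times as high in Gv 3 as in the mean of Gv 1 and 2, and the PT4 orthologs were 6.00 times (Cs7g29450) and 6.37 times (Cs9g18560) as high.

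KEGG assigns 16 genes to the H+-transporting ATPase of the plasma membrane, 9 of them found by the search and 7 not. Of the 7, Cs1g03320 is described as a different protein, so its place in the set is uncertain. Without colonization the highest of the 16 was not a gene of the search but Cs4g03700, described as a hypothetical protein of peach. It had 834, 1151 and 1220 reads in Gv against 1368, 1474 and 1283 in control, or 38.0 ± 7.32 RPKM in Gv against 47.4 ± 2.57 in control (SD, n = 3 each). Every Gv library was below every control library, which 3.26% of all genes tested showed, although Gv 3 at 44.47 RPKM nearly touched control 3 at 44.52. The log2 difference of -0.34, with a standard error of 0.18, was not called (adjusted p = 0.9999 by edgeR's quasi-likelihood test), and it was named after its values were seen. Behind it in the control roots came Cs6g20570, Cs7g07300 and Cs5g04360 at 27.2, 25.2 and 23.2 RPKM, whose libraries overlap so that their order is not fixed, then Cs6g03480 at 4.92 RPKM. The other 11 genes had a mean of under 1 RPKM, HA1 at 0.

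In colonized roots HA1 entered this set at rank 5 in Gv 1 and Gv 2 and at rank 1 in Gv 3. It made up 8.37%, 9.36% and 30.3% of the summed RPKM of the 16 genes in Gv 1 to 3. The sum itself was 107, 117 and 238 in Gv against 117, 114 and 161 in control. Without HA1 it was 98.2, 106 and 166 in Gv, which overlaps the controls. Of the other 15 genes of the set 9 were tested with 0 calls and 6 were below the filter, and in Gv 1 and 2 the sum with HA1 was still within the range of the controls or below it.

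**Figure D2:**
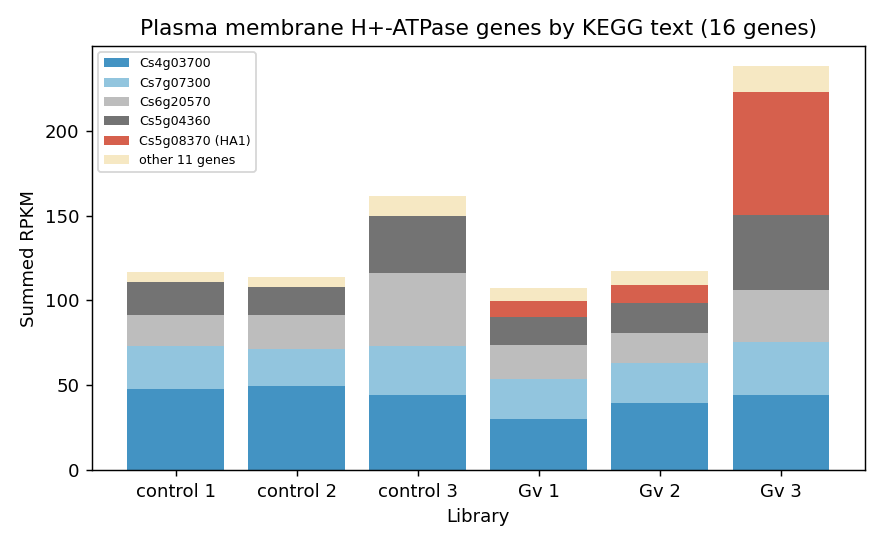
Summed RPKM of the 16 genes that KEGG assigns to the plasma membrane H+-ATPase, stacked by gene for each library, with HA1 in red. HA1 is absent from the 3 control bars and makes up 8.37%, 9.36% and 30.3% of the Gv bars, while Cs4g03700 is the largest segment in the controls and in Gv 1 and 2.

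The V-ATPase subunits differed little between the groups, but in 1 direction. All 10 tested genes had a log2 fold change below 0, as 52% of all genes tested had, and their median was -0.17 against -0.01 over all genes tested. With any 1 library left out it was 9 or 10 of the 10, and none was called. The c subunit is the proteolipid whose ring carries the protons across the membrane. The 3 genes for it that the search found were among the more abundant. KEGG text adds Cs3g19730 for this subunit, with a mean of 15.7 RPKM in Gv and 17.4 in control. Cs8g07570 had 383, 410 and 410 reads in Gv against 533, 428 and 433 in control (log2 fold change -0.18, standard error 0.14). All 3 Gv libraries were below the controls in reads, but in RPKM Gv 3 at 35.8 overlapped control 2 at 34.5. Cs3g25710 had 196, 190 and 229 reads in Gv against 286, 237 and 257 in control (log2 fold change -0.31, standard error 0.15), and here too the RPKM of Gv 3 was above that of control 2. Cs1g25080 had 181, 161 and 195 reads in Gv against 202, 159 and 254 in control (log2 fold change -0.15, standard error 0.20), with full overlap.

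Of the other parts of the membrane sector, Cs6g20820 encodes a d subunit, which joins the ring to the rotating stalk. It had 310, 356 and 352 reads in Gv against 381, 337 and 364 in control, a log2 fold change of -0.06 with a 95% interval of -0.33 to 0.22. Cs3g25550 is described as an a3 subunit, the large membrane protein that gives protons their path, but its listed length is 330 bases, too short for the whole protein. It had 12, 7 and 13 reads in Gv against 11, 16 and 21 in control. The log2 fold change of -0.54 was the most negative of the V-ATPase, and its 95% interval of -1.48 to 0.41 spans both directions. Its KEGG text is shared by Cs8g08330, Cs8g17300, Cs3g25560 and Cs3g25540, named after their values were seen. Their log2 fold changes were -0.04, -0.01, -0.03 and -0.29. The first 2 held far more reads, 4683 and 2006 over all libraries against 80 for Cs3g25550.

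Among the subunits of the peripheral sector, 1 gene of subunit F had no overlap between the groups but was not called. Cs3g10850 encodes this small part of the central stalk and had 88, 110 and 94 reads in Gv against 129, 129 and 138 in control. Its mean RPKM came to 8.12 ± 0.70 in Gv against 10.7 ± 0.54 in control (SD, n = 3 each), and every Gv library was below every control library, the only one of the 22 tested genes with this pattern, which 3.26% of all genes tested had, while the opposite pattern was found in 0 of the 22 and in 5.35% of all genes tested. The log2 fold change was -0.41 (standard error 0.13, 95% interval -0.73 to -0.09), with an unadjusted p of 0.0193 and an adjusted p of 0.799 by edgeR's quasi-likelihood test, or 0.415 with the replicate block. It was therefore not called, and the interval lies within 2-fold. The value held between -0.47 and -0.36 with any 1 library left out. A second gene for subunit F by KEGG, Cs5g30450, which the search did not find and which was named after its values were seen, had 10.5 ± 1.18 RPKM in Gv against 9.98 ± 0.70 in control (SD, n = 3 each), with a log2 fold change of 0.07.

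Subunit G, a part of the outer stalk that holds the motor still, had the highest mean RPKM of the V-ATPase genes in both groups. Cs6g11650 had 735, 791 and 392 reads in Gv against 820, 795 and 403 in control. Library 3 had far fewer reads than libraries 1 and 2 in both groups, and the Gv and control libraries of a number lay close together. In the libraries numbered 3 its 44.1 RPKM in Gv and 43.2 in control were below those of 2 genes assigned by KEGG text, Cs7g14530 and Cs4g02110, so the rank is not fixed. Its log2 fold change was -0.05, with a standard error of 0.37 without the block and 0.10 with it. The other gene for subunit G that the search found, Cs3g22780, had 1 read in control 3 and 0 elsewhere. KEGG text adds orange1.1t03979 for this subunit, with 2 to 5 reads per library.

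The remaining subunits of this sector differed by less than the spread of the libraries allows to separate. Subunit E, which pairs with G in the outer stalk, is encoded by Cs5g02680, with 576, 593 and 657 reads in Gv against 686, 647 and 690 in control (log2 fold change -0.11, standard error 0.12). Subunit C, which anchors the outer stalks, is encoded by Cs2g14330, with 252, 287 and 334 reads in Gv against 369, 337 and 329 in control (log2 fold change -0.21, standard error 0.15). Subunit H, a regulatory subunit, is encoded by Cs7g14490, with 201, 227 and 288 reads in Gv against 259, 244 and 277 in control (log2 fold change -0.09, standard error 0.17). In subunits C and H the group ranges overlapped, and Gv 1 held the fewest reads of the 6 libraries.

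**Figure D3:**
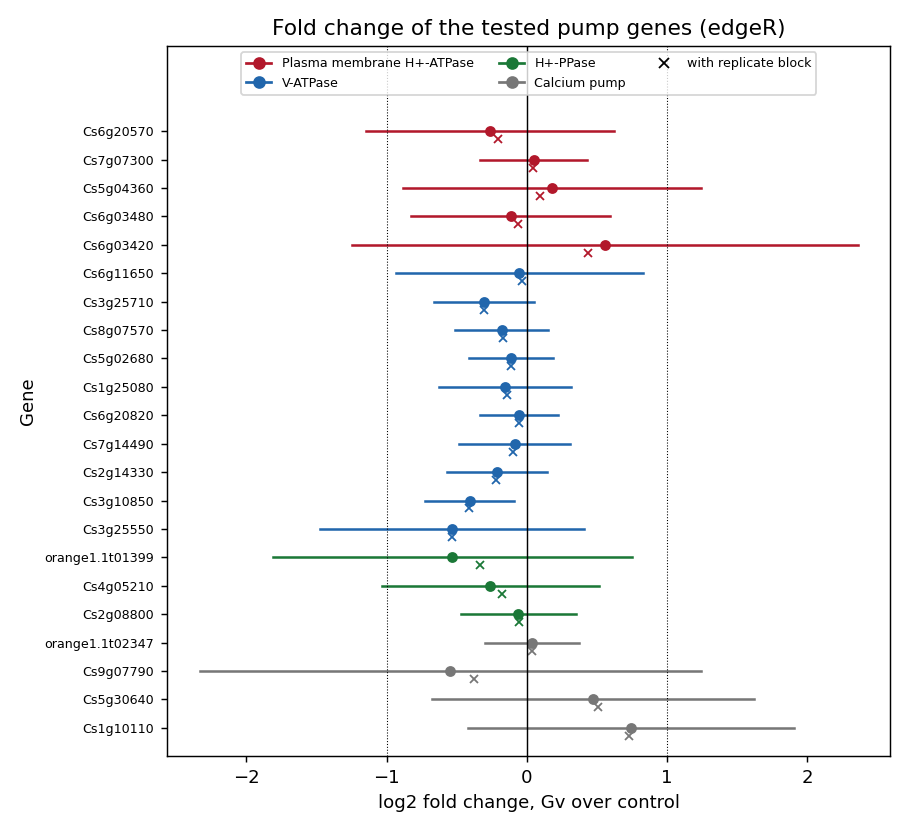
Log2 fold change of Gv over control for the 22 tested genes from edgeR's quasi-likelihood fit without a block (points) with 95% intervals (lines), and the estimate with the replicate block (crosses). Dotted lines mark 2-fold. All 10 V-ATPase points lie below 0, between -0.54 and -0.05, and only the interval of Cs3g10850 does not reach 0.

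KEGG text gives 26 genes for the V-ATPase in all, with 15 that the search had missed, among them both genes for subunit B. It gives 0 genes for the catalytic subunit A. Of the 15, Cs6g10330 is described as a root phototropism protein, so its place in the list is uncertain. Of the 26 genes 22 were tested, 0 were called and 21 had a log2 fold change below 0, with a median of -0.10. For the 12 tested genes outside the search the median was only -0.05, with 11 below 0. The number below 0 was 19 of 22 when the counts were scaled by library totals, under which the median of all genes was 0.00, and 16 of 22 without control 3. Of the genes by KEGG text alone, Cs7g14530, annotated as the 54 kD subunit, had the highest mean RPKM over the 6 libraries. It had 56.2 ± 6.54 RPKM in Gv against 57.9 ± 7.84 in control (SD, n = 3 each) and a log2 fold change of -0.05. Its listed length of 517 bases is too short for the whole protein and raises its RPKM, which rests on 117 to 157 reads per library. Cs7g14490, described above as subunit H, carries the same KEGG text. The summed RPKM of all 26 genes was 500, 498 and 510 in Gv against 578, 512 and 540 in control, so that each Gv library was below each control library, with Gv 3 and control 2 nearly level. The genes share their libraries and are not independent, and a shift of this size common to them was not tested.

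The H+-PPases were led by orange1.1t01399, which had the highest mean RPKM of the 23 proton pump genes. In libraries 1 and 2 of both groups, however, the V-ATPase gene Cs6g11650 was above it, so this rank rests on the libraries numbered 3. orange1.1t01399, described as a pyrophosphate-energized vacuolar membrane proton pump, had 1907, 1772 and 3038 reads in Gv against 2005, 1722 and 6366 in control. The RPKM of 245.5 in control 3 was more than 3 times that of control 1 at 78.2 or control 2 at 64.3, and Gv 3 at 123 was the highest of its group too. The log2 fold change was -0.53 (standard error 0.53, 95% interval -1.81 to 0.75), and without control 3 it was 0.29, so its direction rests on that library. Libraries 1 and 2 of both groups lay between 64.3 and 78.2 RPKM.

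Cs4g05210, the second gene described as a vacuolar membrane pyrophosphatase, had 600, 709 and 526 reads in Gv against 867, 946 and 417 in control. In libraries 1 and 2 the Gv reads were below those of the controls, and in library 3 they were above. The log2 fold change was -0.26 (standard error 0.32). Cs2g08800, described as a membrane proton pump 3 without the word vacuolar, had 717, 829 and 942 reads in Gv against 861, 758 and 1041 in control, with a log2 fold change of -0.06 (standard error 0.17, 95% interval -0.47 to 0.35). In both groups library 3 was thus high for orange1.1t01399 and low for Cs4g05210.

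When the genes of each type were summed, the plasma membrane type gave no separation of the groups and the V-ATPase gave a small one. The summed RPKM of the 9 plasma membrane genes was 66.3, 64.8 and 118 in Gv against 67.2, 62.4 and 114 in control. The sum of the 11 V-ATPase genes was 257, 254 and 247 in Gv against 310, 270 and 260 in control. Every Gv library was below every control library, although Gv 1 at 256.8 nearly touched control 3 at 260.4. The sum of the 3 H+-PPase genes was 124, 120 and 173 in Gv against 141, 126 and 290 in control, and without orange1.1t01399 it was 47.5, 52.9 and 49.9 in Gv against 62.6, 61.3 and 44.6 in control. These sums are given with no test, since they run over genes chosen with results of these data known. On the log2 scale the ratio of the group means was 0.04 for the plasma membrane type, -0.15 for the V-ATPase and -0.42 for the H+-PPases, and the last was 0.06 without control 3. The plasma membrane sum leaves out HA1 and Cs4g03700, which the search did not find. Over the genes by KEGG text the ratio was 0.24 for the plasma membrane type, or -0.08 without HA1. By that text it was -0.11 for the V-ATPase and -0.41 for the H+-PPases.

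The ratio of the types varied more with the library number than with colonization. The V-ATPase sum was 3.88, 3.91 and 2.09 times the plasma membrane sum in Gv 1 to 3, and 4.60, 4.32 and 2.29 times in control 1 to 3. Both libraries numbered 3 had the lowest ratio of their group, and at each number the Gv library had the lower ratio of the pair. The size of these ratios depends on the listed gene lengths and on how many genes are summed. By share of gene reads, the V-ATPase genes held 0.06676%, 0.0677% and 0.06825% in Gv 1 to 3. The plasma membrane genes held 0.0406%, 0.03964% and 0.07157%. In control 1 to 3 the shares were 0.08149%, 0.07067% and 0.06942% against 0.04172%, 0.03895% and 0.07037%. In both libraries numbered 3 the V-ATPase share was thus the lower one. Of the 5 tested plasma membrane genes, 3 were at least 1.5-fold higher in library 3 than in the mean of libraries 1 and 2 in both groups, which 6.98% of all genes tested were. These were Cs6g03420 (4.72-fold in Gv and 2.83-fold in the controls), Cs5g04360 (2.59-fold and 1.87-fold) and Cs6g20570 (1.64-fold and 2.23-fold). Of the 10 V-ATPase genes, none was higher by this measure and only Cs6g11650 was at least 1.5-fold lower in both, at 0.53 and 0.50 of the other libraries, as 9.21% of all genes tested were.

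**Figure D4:**
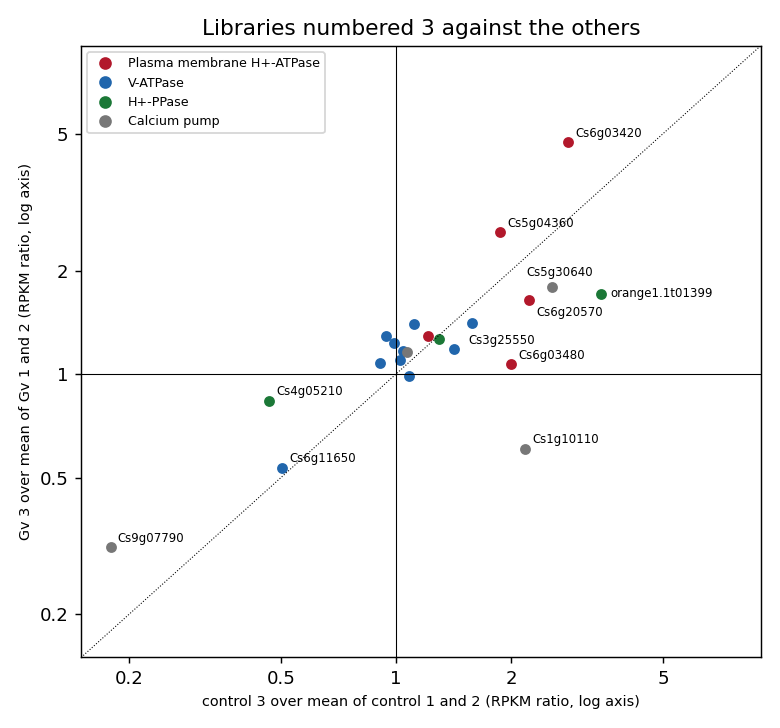
RPKM in library 3 divided by the mean of libraries 1 and 2, in the controls (horizontal) and in Gv (vertical), for the 22 tested genes on log axes, with genes at least 1.5-fold from 1 in either group named. Most V-ATPase subunits lie near 1 on both axes, while Cs6g03420 (4.72 in Gv and 2.83 in control), Cs5g04360 and orange1.1t01399 lie high and Cs6g11650 (0.53 in Gv and 0.50 in control) and Cs9g07790 lie low in both groups.

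The 4 calcium pumps, P-type ATPases that export calcium from the cytosol, gave 0 calls as well. orange1.1t02347, matched to a calcium-transporting ATPase 4, was by far the highest, with 475, 602 and 599 reads in Gv against 503, 587 and 576 in control. The groups overlapped closely, with a log2 fold change of 0.04 and a 95% interval of -0.29 to 0.37. Cs9g07790, matched to an ATPase 13, had 144, 140 and 43 reads in Gv against 148, 295 and 39 in control, and library 3 was low in both groups, at 0.31 of the others in Gv and 0.18 in control. This gave a log2 fold change of -0.54 (standard error 0.75). Cs5g30640, matched to an ATPase 12, had 25, 44 and 59 reads in Gv against 18, 24 and 53 in control, above its control at each number, with a log2 fold change of 0.47 (standard error 0.48) that was not called with the block either (adjusted p = 0.595 by edgeR). Cs1g10110, a second match to an ATPase 13, had 22, 12 and 10 reads in Gv against 6, 7 and 14 in control, too few to set the groups apart.

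Lists of related genes gave 0 calls as well, as did all genes tested without the block (0%), so these counts do not distinguish the lists. The F-type ATPase, the rotary ATP synthase of mitochondria and plastids, had 24 genes by KEGG text, of which 22 were tested, with 14 below 0 against 52% of all genes tested and a median log2 fold change of -0.02. Several of the 24 are described as other proteins, so their place in the list is uncertain. Among them, Cs6g07210 also carries the KEGG text of cytochrome c oxidase subunit 3 and is described as a lipid-transfer protein. Others are Cs3g05180 (a DNA ligase), Cs7g27610 (a mitochondrial carrier), orange1.1t02032 (a plastid-lipid-associated protein), orange1.1t03068 (a prenylated rab acceptor) and orange1.1t04818 (a photosystem I assembly protein). The most abundant of the 24, Cs2g13550, had 128, 145 and 197 RPKM in Gv against 157, 145 and 203 in control, with overlap. Of 11 genes described as 14-3-3 proteins, 7 were tested and 0 called, 5 below 0 with a median of -0.06, and the highest, Cs6g18830, had 86.0, 85.2 and 77.2 RPKM in Gv against 97.5, 82.2 and 72.0 in control. Of 11 genes described as cation or sodium proton exchangers, which spend the proton gradient, 5 were tested and 0 called, 3 below 0 with a median of -0.12, and the highest, Cs4g07820, had 18.6, 21.2 and 16.01 RPKM in Gv against 21.3, 18.7 and 14.4 in control. The replicate block called 0 genes of these 3 lists too, where it called 0.995% of all genes tested. KEGG text gives 6 further genes for pyrophosphatases, of which 5 were tested and 0 called. One of them, Cs3g15070, named after its values were seen, is described as an H+-pyrophosphatase that the search words missed, and it had 10, 6 and 10 reads in Gv against 9, 14 and 6 in control. Of the other 5, only Cs1g24330 is described as a soluble enzyme. HA1 was the only gene of these pump and partner lists that was called with the block, by DESeq2 or by the NOISeq criterion.

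**Figure D5:**
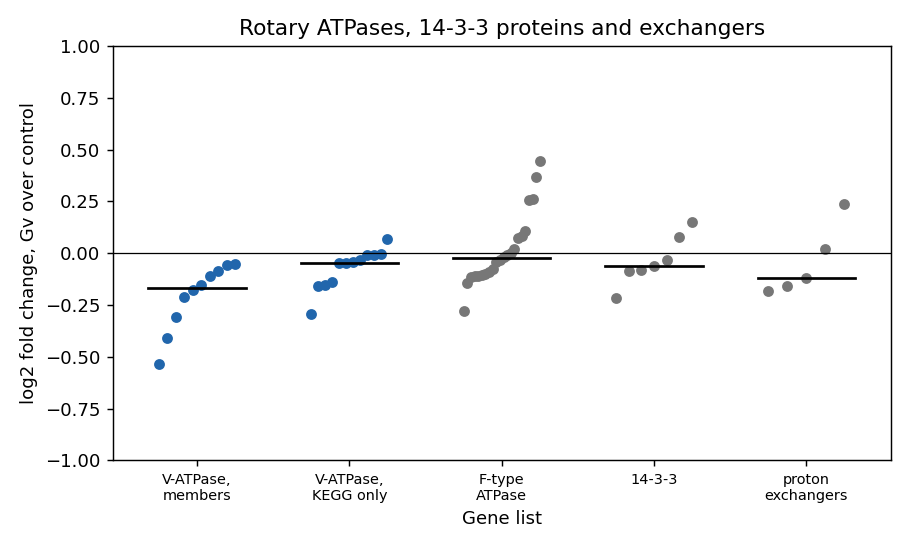
Log2 fold change of Gv over control for each tested gene (points, sorted within a list) and the median (black line) of the 10 V-ATPase genes of the search, the 12 V-ATPase genes by KEGG text alone, 22 F-type ATPase genes, 7 genes for 14-3-3 proteins and 5 exchangers. The medians are -0.17, -0.05, -0.02, -0.06 and -0.12, against -0.01 over all genes tested, and no point reaches 2-fold.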

How the data were processed

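For each of the 6 libraries the authors discarded reads of poor quality, mapped the others with SOAPaligner/SOAP2 on the genome of Citrus sinensis, and deposited a raw count of the unique alignments per gene. Deposited with it is the RPKM by the authors, which was recomputed from count and length and agreed to rounding, and the percent of each gene's length that reads covered, which was not used in any test. The annotation version is not given in the sources used here. Genes not listed in a library were taken as 0 reads. The unique alignment could not be repeated, and genes that differ between C. sinensis and P. trifoliata may be undercounted. Depth was 4.34 M to 4.71 M reads on genes per library, and 3 libraries per group limit the precision.

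The deposited counts went into edgeR 4.0.16 under R 4.3.3 (expression filter, TMM factors between 0.955 and 1.03, quasi-likelihood test) for Gv against control over 16281 genes, with the call set at a Benjamini-Hochberg adjusted p below 0.05 and a change of 2-fold or more either way. The standard error was taken from the F value. Scripts were tested on simulated data. Alternatives were the replicate block, DESeq2 1.42.0, library totals, upper-quartile factors, no expression filter, a filter on a mean count of 10, calls without the fold limit, each library left out, limma 3.58.1 on log2(RPKM + 0.5) or log2(RPKM + 0.1), and the NOISeq criterion (probability of at least 0.8, at least 2-fold) re-implemented in Python 3.11.15. Deviations of same-numbered libraries from their group means correlated across genes at 0.357, 0.481 and 0.613, each over 0.1. Same numbers were therefore treated as pairs in the replicate block, although neither the labels nor the study say so. The main test had no block. Fold changes, standard errors, intervals and p-values are from this unpaired test unless another setting is named. Gv 1 also correlated with control 2 (0.429) and Gv 2 with control 1 (0.272), so the check sets number 3 apart from numbers 1 and 2 and does not separate those from each other. The common coefficient of variation was 29.9% without and 16.7% with the block.

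Named genes are every plasma membrane H+-ATPase and H+-PPase that the text search found, V-ATPase genes by subunit, by size of change and by separation of the groups, the highest calcium pumps, HA1, and the called or highest gene of each further list. The members and lists were chosen with earlier results of these data known. No sequences are printed, since none of the sources used here holds them.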

Additional observations from a re-analysis of the deposited data

How the results depend on the processing

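No alternative called any of the 22 tested pump genes, and the counts of called plasma membrane and vacuolar genes were 0 throughout. Over all genes edgeR without the block called 0. The replicate block called 162, DESeq2 193, limma 22 with a pseudocount of 0.5 and 73 with 0.1, and the NOISeq criterion 377. Leaving out both libraries numbered 3, chosen after seeing the data, gave 216 with the block and 208 without it. With single libraries left out the count ran from 0 to 71 without the block (71 without Gv replicate 3) and from 116 to 243 with it (136, 116 and 209 without Gv replicate 1, 2 and 3, and 136, 118 and 243 without control replicate 1, 2 and 3). For HA1 the log2 fold change of 12.68 was not called without the block. It was called at 12.70 with the block, 12.14 by DESeq2, 7.60 by limma with 0.1 (limma with 0.5 gave 5.32 and an adjusted p of 0.0898, not called), 10.72 by the NOISeq criterion, and 11.07 without both libraries numbered 3, with or without the block. It ran from 11.08 to 13.12 with single libraries left out, called only without Gv replicate 3, and from 11.06 to 13.13 with the block as well (13.09 without replicate 2 of either group), called each time. Such fitted values depend on the prior count.

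Of 352 values for the tested genes 22 had the other sign, at most 0.58 in size, and 10 of the 22 genes kept their sign throughout. With the block and without both libraries numbered 3 the log2 fold change was -0.083 for Cs5g04360, 0.24 for Cs6g03480, -0.0030 for Cs7g07300 and -0.020 for orange1.1t02347. With single libraries left out it ran from -0.42 to 0.52 for Cs5g04360, -0.58 to 1.20 for Cs6g03420, -0.29 to 0.27 for Cs6g03480, -0.53 to 0.20 for Cs6g20570, -0.076 to 0.13 for Cs7g07300, -0.30 to 0.0096 for Cs1g25080, -0.32 to 0.20 for Cs6g11650, -0.26 to 0.0029 for Cs7g14490, -0.17 to 0.053 for Cs2g08800, -0.84 to 0.29 for orange1.1t01399, -1.01 to 0.25 for Cs9g07790 and -0.027 to 0.12 for orange1.1t02347. The family sums moved by less than the spread between replicates, although the sign changed for the plasma membrane type (-0.31 to 0.36) and for the H+-PPases (-0.63 to 0.06), while the V-ATPase stayed between -0.20 and -0.07. The cause of these changes was not tested. At this depth genes with a few reads per library, such as Cs6g03440, Cs6g03445, Cs6g03470 and Cs4g01370, cannot be compared between the groups.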
